A study of Mus musculus with 29 samples.

Results

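Microglia that had grown back after drug depletion (LBL) were compared with microglia that had never been depleted (LL), in mice that had all received lipopolysaccharide (LPS) 2 times. The comparison was set by the labels and rests on 5 LBL and 5 LL libraries, 10 of the 29 libraries of the series, and on all genes. Every mouse was a male C57BL/6J, first injected at 10 weeks of age and examined at 15 weeks. Both groups received 1 mg/kg LPS into the abdomen, and 5 weeks later the same dose again, so both injections are common to the groups compared. From 1 week after the earlier dose, LBL mice were gavaged for 5 days with BLZ945 at 169 mg/kg per day, an inhibitor of the receptor CSF1R, and LL mice with its vehicle, 20% hydroxypropyl-beta-cyclodextrin. At 3 h after the later LPS the brains were taken, and living single cells that were CD11b high, CD45 intermediate and Ly6C negative were sorted for bulk RNA sequencing. BLZ945 reaches the whole animal, so any CSF1R-dependent cell was exposed and not only microglia. The depletion itself has no readout in these 10 libraries.

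Microglia are the resident macrophages of brain tissue, and they need signals through CSF1R to survive. When CSF1R is blocked most of them die, and once the drug is withdrawn the survivors divide and refill the brain. LPS is a cell wall component of Gram-negative bacteria that is sensed by the receptor TLR4 with CD14, and it switches on NF-kB, cytokine genes and an interferon response. Cells that have met LPS before often respond differently to the next dose, and the series asks how depletion and regrowth bear on that memory.

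The 10 libraries held 6404550 to 12671476 counts in LL and 6111284 to 9612363 in LBL. The mean RNA quality number, which scores how intact the RNA is, was 8.24 ± 0.422 in LL and 8.36 ± 0.541 in LBL (SD, n = 5 each; exact permutation test, two-sided, p = 0.754). Sorting day was close to the same split as group: LBL 1 to 4 and LL 5 were sorted on day 1, and LL 1 to 4 and LBL 5 on day 2, all on one instrument. The first principal component of the 10 libraries (26.8% of the variance) separated the days, at 4.46 to 41.3 for day 1 and -64.3 to -7.93 for day 2. The second (13.4%) separated the groups, with LL at or below 1.67 and LBL at or above 3.40, and LL 5 (-47.3) and LBL 5 (50.9) at its ends. The calls between LBL and LL were therefore also made within each day and with day in the fit. Which animal gave which sample is not in the labels, and the p-values therefore cover only sample-to-sample spread, part of which may be technical.

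**Figure D1:**
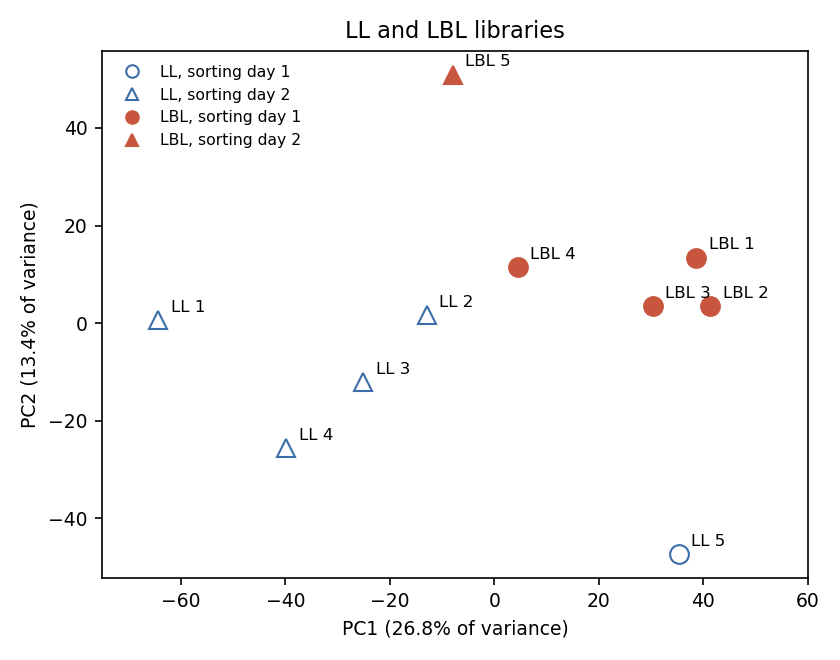
Positions of the 5 LL and 5 LBL libraries on the first and second principal components of log2 CPM, with the percentage of variance on each axis label. Circles are libraries of sorting day 1 and triangles those of day 2; the horizontal axis parts the days and the vertical axis parts LL (at most 1.67) from LBL (at least 3.40).

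Few genes differed between repopulated and original microglia after repeated LPS. Of 16632 genes tested, 81 were higher in LBL (0.487%) and 120 were lower (0.722%) at an adjusted p under 0.05 (edgeR quasi-likelihood test, Benjamini-Hochberg adjustment), and these are the genes called below. The difference was at least 2-fold for 33 of the higher and 28 of the lower genes, and the median log2 fold change over all tested genes was 0.02. An unadjusted p under 0.05 was reached by 2119 genes. Levels are given in CPM after TMM scaling, which correct for library size and not for gene length. The LL and LBL libraries did not overlap for 64 of the 81 higher and 105 of the 120 lower genes, where 1.32% of all tested genes had every LBL library above every LL library and 3.03% below. All 81 and all 120 kept their sign within both sorting days, as did 29.4% of all tested genes in the positive and 28.7% in the negative direction. This is no test of sorting day, because the genes were called from these same libraries. Where the groups do not overlap, the sign within each day is fixed in advance. The median log2 fold change was 0.79 on day 1 and 0.93 on day 2 for the higher genes, and -0.51 and -0.59 for the lower genes. A fit of the 10 libraries alone, without day, called 103 genes higher and 148 lower, 162 of them among the 201. With day in that fit, 144 genes were higher and 66 lower, 98 of them among the 201. Higher genes made up 68.6% of the calls with day and 41.0% without, against 40.3% in the fit of all 29 libraries. Without both libraries numbered 5 there were 98 calls, and leaving out 1 library brought the 201 to 113 without LL 1, 133 without LL 3, 85 without LL 4, 128 without LBL 1, 122 without LBL 2 and 113 without LBL 5.

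The gene with the smallest adjusted p among those higher in LBL was Axl, which encodes a receptor tyrosine kinase for phagocytosis of dying cells (ENSMUSG00000002602, chromosome 7). Axl stood at 10.7, 7.58, 7.88, 7.19 and 10.6 CPM in LL 1 to 5 and at 47.2, 27.8, 23, 28.3 and 53.2 CPM in LBL 1 to 5. Each LBL library was above every LL library, and the log2 fold change was 2.03 (SE 0.24, adjusted p = 6.75e-06), 1.57 on day 1 and 2.67 on day 2. Its relative Mertk, also a receptor for dying cells, was at 311 ± 25.5 CPM in LL and 328 ± 36.5 in LBL (adjusted p = 0.792), and Gas6, the gene of an Axl ligand, at 110 ± 20.1 and 105 ± 19.2 (adjusted p = 0.906). Of 34 tested genes for phagocytic and inhibitory receptors, Axl rose and Clec4n, the gene of the fungal receptor dectin-2, fell (-2.03, SE 0.52, adjusted p = 0.0421; not called without LL 1, 3, 4 or 5 or LBL 1, 2, 4 or 5). Their median was -0.07.

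Pdcd1, which encodes the inhibitory receptor PD-1 (ENSMUSG00000026285, chromosome 1), was at 7.15, 12.9, 14.1, 7.47 and 11.9 CPM in LL and at 36.0, 29.7, 25.6, 31.9 and 45.9 CPM in LBL, without overlap (log2 fold change 1.65, SE 0.23, adjusted p = 4.91e-05). Cd274, the gene of its ligand PD-L1, averaged 14.1 ± 3.30 CPM in LL and 32.9 ± 7.64 in LBL, again without overlap (1.21, SE 0.19, adjusted p = 0.000456). Lag3, which encodes an inhibitory receptor that binds MHC class II, was at 306 ± 82.9 CPM in LL and 474 ± 66.4 in LBL with the groups overlapping (0.63, SE 0.16, adjusted p = 0.0393; not called without LL 1, 3, 4 or 5 or LBL 1, 2, 3 or 5, up to 0.131). Cd274 and Lag3 were picked out of the 201 after their values were seen, and no list of checkpoint genes was tested.

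Among the other called genes with a large increase were Htra3, a secreted serine protease (2.27, SE 0.38, adjusted p = 0.00111), Fn1, the matrix protein fibronectin (2.01, SE 0.42, adjusted p = 0.00792) and Arhgap15, a Rac regulator (1.54, SE 0.28, adjusted p = 0.00208). P2ry14, a receptor for UDP-glucose, went from 3.60 ± 1.94 to 14.0 ± 4.14 CPM but was not called without LL 1, 2 or 4 or LBL 1, 2, 4 or 5 (adjusted p up to 0.105). Bhlhe40, a transcription factor gene, went from 3.12 ± 0.99 to 9.99 ± 2.85 CPM and was not called when any 1 of the 10 libraries was left out (adjusted p 0.0514 to 0.131). Ch25h, which makes the interferon-induced oxysterol 25-hydroxycholesterol (chromosome 19), was at 4.53, 5.21, 7.73, 7.19 and 22.2 CPM in LL and at 36.6, 19.9, 42.7, 38.3 and 52.8 CPM in LBL. LL 5 lay above LBL 2, and the log2 fold change of 2.00 (SE 0.40, adjusted p = 0.00879) was 0.62 on day 1, where LL 5 is the only LL library, and 3.09 on day 2.

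The following 4 higher genes were chosen after their values were seen. Hcar2, the receptor for beta-hydroxybutyrate and niacin (chromosome 5), rose from 473 ± 103 CPM in LL (336 to 601) to 1067 ± 167 in LBL (778 to 1171), which is 1.17 on the log2 scale (SE 0.20, adjusted p = 0.00208). Ptger4, the prostaglandin E2 receptor EP4, averaged 36.6 ± 8.70 CPM in LL and 77.9 ± 16.6 in LBL (1.09, SE 0.18, adjusted p = 0.000559). Gpr65, a proton-sensing receptor, averaged 76.6 ± 13.8 and 151 ± 35.2 CPM (0.98, SE 0.17, adjusted p = 0.00169). For these 3 genes every LBL library was above every LL library. Vcam1, an adhesion molecule gene, went from 16.6 ± 4.01 to 41.0 ± 14.1 CPM with LBL 2 at the level of LL 1, both at 22.2 (1.31, SE 0.29, adjusted p = 0.0198; not called without LL 3 or 4 or LBL 1, up to 0.0682).

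**Figure D2:**
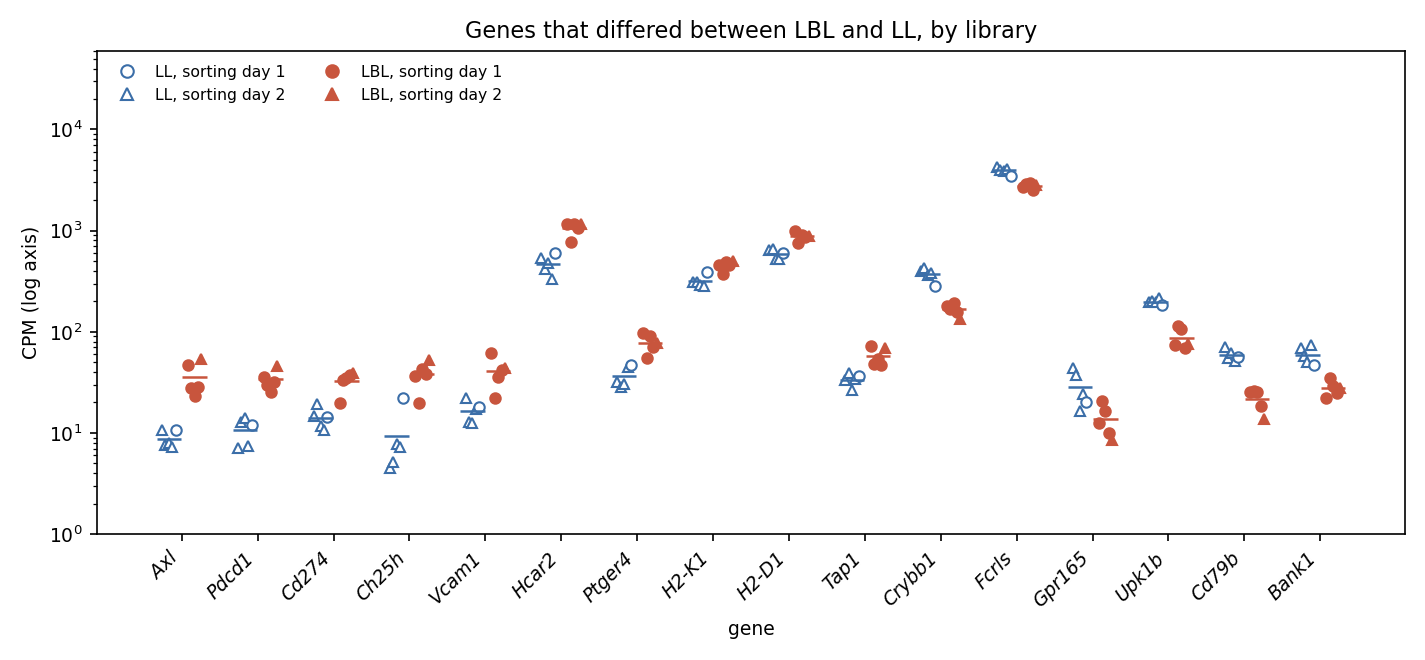
CPM on a log axis of 16 called genes in each LL library (open blue) and LBL library (filled red), with circles for sorting day 1, triangles for day 2 and a bar at the group mean. Axl lies between 7.19 and 10.7 CPM in LL and between 23 and 53.2 in LBL, Crybb1 between 283 and 426 in LL and between 135 and 191 in LBL, and LL 5 is the highest LL library for Ch25h at 22.2.

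No gene on the list of inflammatory cytokines and chemokines was called after the later LPS with sorting day left out of the fit. The list does not hold Pf4, a chemokine gene called lower, or Tnfsf13b, the gene of the B cell factor BAFF, called higher. Of the list's 25 tested genes none passed the test, and their median log2 fold change was -0.06, against 0.02 for all genes. The median over the 25 was -0.40 on day 1 and 0.04 on day 2, and -0.59 on day 1 over the 22 with enough counts that day. With day in the fit it was -0.28 over 22 genes, and 1 of them was called lower, the B cell chemokine gene Cxcl13 (-1.92, adjusted p = 0.0396; -1.37, adjusted p = 0.327 without day). Il1b, the gene of interleukin 1 beta, was at 65.8, 40.1, 59.9, 36.9 and 109 CPM in LL and at 25.9, 31.1, 63.6, 36.2 and 39.8 in LBL. The groups overlapped, and the difference of -0.67 (95% interval -1.44 to 0.09, adjusted p = 0.477) leaves room for a clear fall or for none. For Tnf the difference was -0.43 (-1.15 to 0.28, adjusted p = 0.668), for the interferon-induced chemokine gene Cxcl10 0.36 (-0.71 to 1.44, adjusted p = 0.831) and for the chemokine gene Ccl12 -0.16 (-0.61 to 0.30, adjusted p = 0.826). Il1a, at 529 ± 60.6 CPM in LL and 516 ± 69.5 in LBL, was bounded more tightly, at -0.40 to 0.33 on the log2 scale. In mice given only the later LPS, Il1b was at 292 ± 152 CPM in undepleted PL (n = 4) and 298 ± 62.0 CPM in depleted PBL (n = 5). PL was sorted on another instrument than LL and LBL, so these levels stand side by side without a comparison.

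Genes of the LPS sensor and its pathway behaved likewise. None of 20 tested TLR4 signalling genes was called (median -0.04). Tlr4 differed by -0.08 (95% interval -0.37 to 0.21, adjusted p = 0.866), Cd14 by 0.10 (-0.14 to 0.34, adjusted p = 0.785) and the adaptor gene Myd88 by -0.10 (-0.36 to 0.15, adjusted p = 0.798). Of 30 NF-kB targets and feedback regulators 1 rose, the survival gene Bcl2a1d (14.5 ± 3.72 to 33.2 ± 5.55 CPM; 1.19, SE 0.21, adjusted p = 0.00169), with a median of 0.10 for the list. Bcl2a1d has near-identical copies that can share reads: Bcl2a1a was called higher as well (0.61, SE 0.12, adjusted p = 0.00636), while Bcl2a1b was at -0.32 (adjusted p = 0.292). Nfkbia, which encodes the inhibitor that holds NF-kB in the cytoplasm, was at 1030 ± 37.5 CPM in LL and 1053 ± 171 in LBL, a difference of 0.03 (-0.19 to 0.25, adjusted p = 0.940).

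Of 40 tested interferon-stimulated genes 1 was called, Irf7, a master transcription factor of the interferon response. Irf7 went from 4.82 ± 1.68 to 11.4 ± 3.42 CPM with 1 LL and 1 LBL library crossing (1.24, SE 0.31, adjusted p = 0.0387). It was not called without LL 1, 2, 3 or 5 or LBL 3, 4 or 5 (adjusted p up to 0.118). The list's median was 0.25 and 32 of the 40 log2 fold changes were above 0, but the median was -0.05 on day 1 and 0.38 on day 2. Members that did not pass included Usp18 (0.48, adjusted p = 0.309), Ifit3 (0.35, adjusted p = 0.556) and Isg15 (-0.05, adjusted p = 0.956).

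MHC class I genes, which display peptides to CD8 T cells, rose for 3 of 20 tested members of their list. H2-D1 (chromosome 17) was at 640, 656, 529, 530 and 607 CPM in LL and at 1002, 761, 898, 857 and 885 in LBL, without overlap (0.57, SE 0.10, adjusted p = 0.00111). H2-K1 was at 310, 308, 292, 287 and 389 CPM in LL and at 461, 376, 484, 454 and 501 in LBL, where LBL 2 fell below LL 5 (0.52, SE 0.11, adjusted p = 0.0119; 0.19 on day 1 and 0.73 on day 2; adjusted p = 0.058 without LL 4). Tap1, a subunit of the transporter that loads peptides onto class I, went from 33.7 ± 4.64 to 57.9 ± 12.0 CPM (0.77, SE 0.15, adjusted p = 0.00385). The list's median was 0.08. Its other subunit gene Tap2 was at 0.46 (adjusted p = 0.117), B2m, the class I light chain, at 0.16 (adjusted p = 0.536) and the immunoproteasome genes Psmb8 and Psmb9 at -0.23 and -0.17 (adjusted p = 0.238 and 0.682). None of 15 MHC class II presentation genes was called (median 0.00), but this depended on how sorting day was treated. With day in the fit 4 of 14 were lower, H2-Aa (-1.59, adjusted p = 0.00158), H2-Eb1 (-1.70, adjusted p = 0.00519), H2-Ab1 (-0.89, adjusted p = 0.0395) and the invariant chain gene Cd74 (-0.85, adjusted p = 0.0056), and 1 was higher, H2-DMa (0.41, adjusted p = 0.0366). Within day 1, 2 were called lower, and within day 2, 1. Without day, Cd74 was at -0.43 (95% interval -0.88 to 0.02, adjusted p = 0.427), with LL 5 at 438 CPM and the other LL libraries at 169 to 261. Without both libraries numbered 5 it was at -0.06, and none of the 15 was called. DESeq2, without day, called 2 of the 15 higher.

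Stretches of 60 bases upstream of the start sites are shown for Axl and both class I genes. Of the genes looked up, these 3 carry the letters searched for as an NF-kB motif, GGGANNNNCC on either strand. Tap1, Irf7, Cd274, Lag3 and Pdcd1 were looked up as well and gave no stretch. The motif is not particular to the genes shown, as 22 of 62 higher genes with a promoter window carried it. The matched letters are in capitals, each stretch is written 5′ to 3′ on the gene's strand, and sequences and coordinates are RefSeq's on GRCm38.p6, another build than that of the counts.
Axl, chr7:25788780-25788839, minus strand: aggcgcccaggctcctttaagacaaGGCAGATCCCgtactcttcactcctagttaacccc
H2-K1, chr17:34000423-34000482, minus strand: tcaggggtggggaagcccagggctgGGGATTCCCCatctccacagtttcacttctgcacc
H2-D1, chr17:35262899-35262958, plus strand: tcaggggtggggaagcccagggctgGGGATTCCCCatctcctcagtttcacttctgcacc
The H2-K1 and H2-D1 stretches differ at 1 of 60 positions. These genes are close paralogs, and whether reads were split between them was not tested. The motif was present in 32.1% of 300-base promoter windows of the higher genes (25 of 78), 12.6% of those of the lower genes (13 of 103), 25.6% of those of tested genes and 20.7% of all windows. GAAANNGAAA, the letters searched for as an interferon response element, was present in 3.85%, 2.91%, 3.17% and 3.44%. For TTCNNNGAA, a gamma-activated site, the shares were 2.56%, 5.83%, 6.85% and 8.3%. These matches describe letters and no binding.

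Most genes that define homeostatic microglia were not called, and 3 of 33 fell. With sorting day in the fit, Crybb1 and Fcrls were still lower, and Olfml3, a secreted protein gene (0.45, adjusted p = 0.0293), and Sall3, a transcription factor gene (0.49, adjusted p = 0.0313), were higher. Crybb1, a crystallin gene used as a marker of mature microglia (ENSMUSG00000029343, chromosome 5), was at 397, 426, 362, 383 and 283 CPM in LL and at 180, 169, 191, 157 and 135 in LBL. It had the smallest adjusted p of the whole comparison, and every LBL library was below every LL library (-1.15, SE 0.11, adjusted p = 1.62e-08; -0.69 on day 1 and -1.55 on day 2). Fcrls, a microglial Fc receptor-like scavenger gene, fell from 3935 ± 285 to 2774 ± 181 CPM without overlap (-0.50, SE 0.09, adjusted p = 0.00281). Gpr165, an orphan receptor gene, went from 28.3 ± 11.6 to 13.6 ± 5.01 CPM with overlap (-1.05, SE 0.26, adjusted p = 0.0371) and was not called without LL 1, 2 or 4 or LBL 1, 4 or 5 (adjusted p up to 0.134).

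The median over the homeostatic list was -0.05 (0.15 on day 1, -0.07 on day 2 and 0.06 with day in the fit), and its best known members were held within narrow intervals. P2ry12, a purinergic receptor for process movement, was at 5982 ± 706 CPM in LL and 4828 ± 243 in LBL, without overlap but short of the threshold (-0.31, 95% interval -0.53 to -0.09, adjusted p = 0.173). Tmem119 was at 0.22 (0.00 to 0.44, adjusted p = 0.381), the fractalkine receptor gene Cx3cr1 at -0.00 (-0.22 to 0.21, adjusted p = 0.993) and the lineage factor gene Sall1 at -0.07 (-0.40 to 0.26, adjusted p = 0.899). The summed level of the 14 microglia markers was 47642 to 59061 CPM in LL and 46985 to 53528 in LBL, so both groups expressed the markers of the labelled cell type. Upk1b, a uroplakin gene also found in microglia, fell from 198 ± 10.9 to 87.6 ± 20.4 CPM (-1.18, SE 0.22, adjusted p = 0.0037). Npl, which breaks down sialic acid, fell from 148 ± 4.28 to 68.1 ± 9.83 CPM (-1.12, SE 0.14, adjusted p = 1.24e-05), chosen here after its values were seen.

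Csf1r itself, the target of the drug, was at 4311, 5222, 3619, 3460 and 3315 CPM in LL and at 5722, 5599, 5440, 4015 and 5315 in LBL. Its difference of 0.39 (95% interval 0.13 to 0.64) missed the threshold (adjusted p = 0.131) and reached it without LL 2 (adjusted p = 0.0381). Of 18 tested genes of the CSF1R axis 1 was called, Csf2ra, a subunit of the GM-CSF receptor (95.9 ± 15.5 to 136 ± 18.0 CPM; 0.50, SE 0.12, adjusted p = 0.0261). It was not called without LL 3, 4 or 5 or LBL 1, 4 or 5 (adjusted p up to 0.103), and the list's median was 0.13. Of 21 TGF-beta signalling genes, which maintain microglial identity, 2 were called higher (median 0.06). Acvrl1, a type I receptor gene, was at 0.73 (SE 0.17, adjusted p = 0.0239; not called without LL 3, 4 or 5 or LBL 2 or 5, up to 0.0866). Tgfbr2, the type II receptor gene, was at 0.37 (SE 0.10, adjusted p = 0.0468; not called without LL 1 to 5 or LBL 2 to 5, up to 0.147). Of 28 disease-associated and primed microglia genes, Axl, Ch25h and Csf2ra were called higher and none lower, with a median of 0.06. Apoe (-0.29, 95% interval -0.55 to -0.04, adjusted p = 0.301), Clec7a (0.70, adjusted p = 0.131), Itgax (0.85, adjusted p = 0.286) and Spp1 (0.46, adjusted p = 0.665) did not pass.

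**Figure D3:**
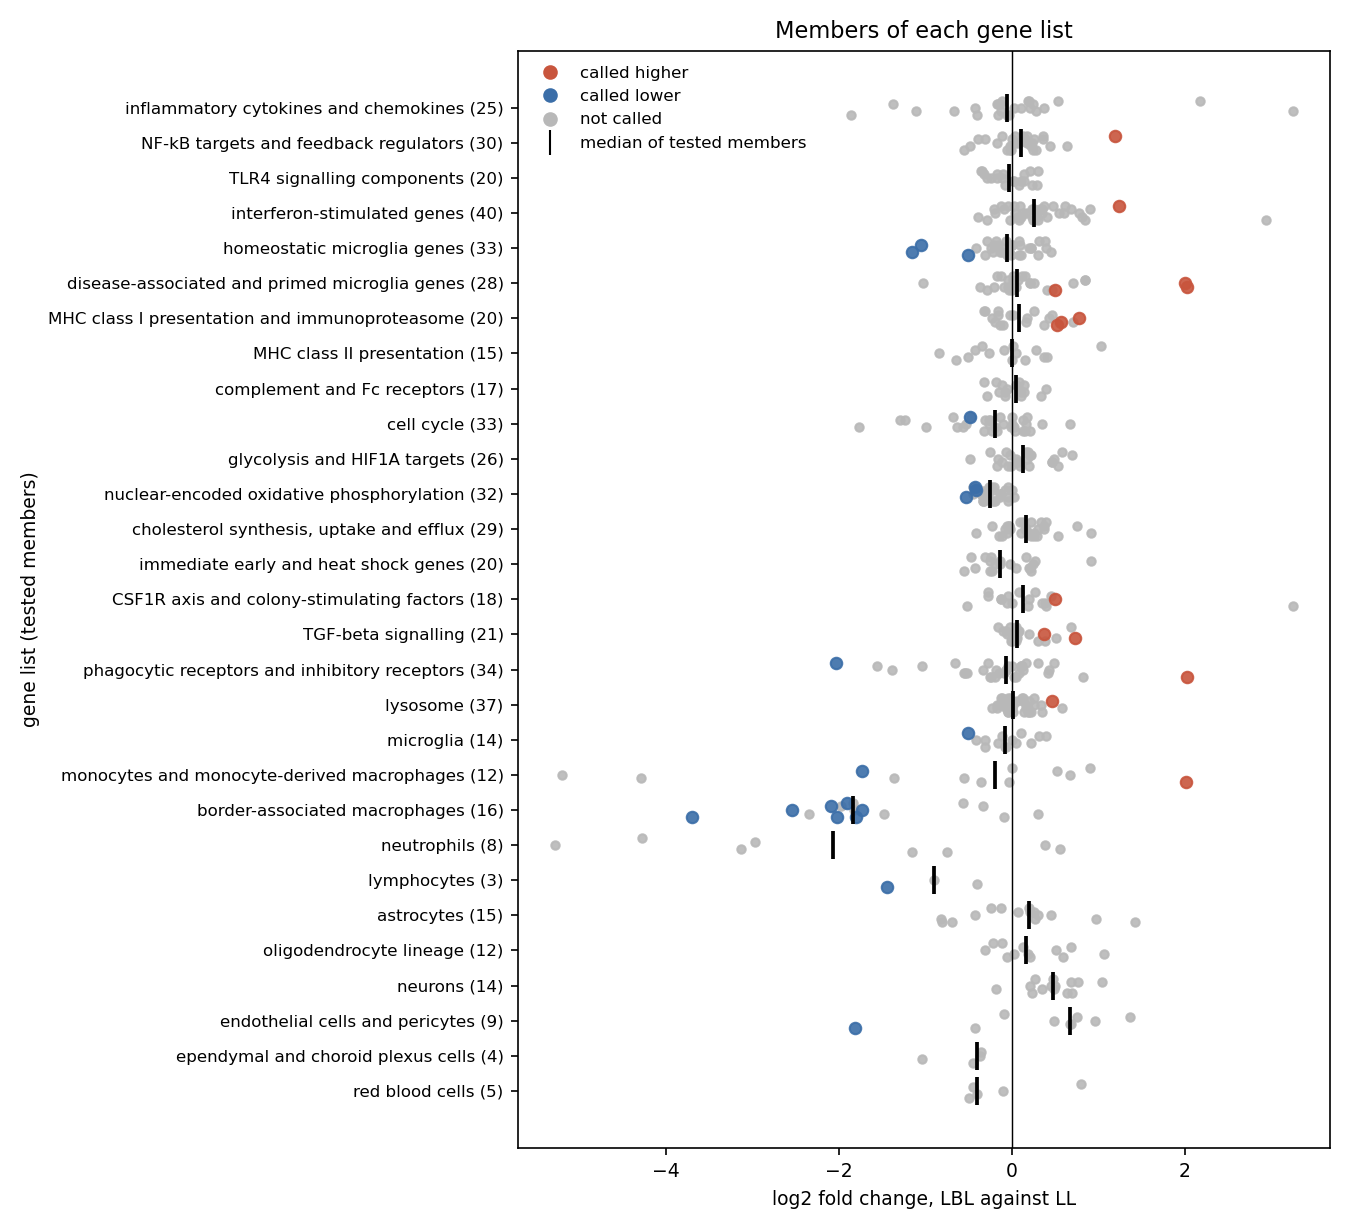
Log2 fold change, LBL against LL, of every tested member of 18 gene programs and 11 cell type marker lists (number tested in brackets), with called genes in colour and a bar at each list's median. Border-associated macrophages have 7 called members and a median of -1.84; the cytokine list has none and a median of -0.06.

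Genes of border-associated macrophages, the CSF1R-dependent macrophages of the meninges and vessel walls, were among the lower genes. Of 16 tested, 7 fell (4 without LL 4, and 4 of the 11 that could be tested with sorting day in the fit, and none within either day alone) and none rose, and their median was -1.84. Mrc1, the mannose receptor CD206 (chromosome 2), was at 32.0, 24.1, 27.4, 37.5 and 21.4 CPM in LL and at 6.94, 10.6, 6.83, 4.02 and 12.2 in LBL (-1.80, SE 0.28, adjusted p = 0.000443). F13a1, a coagulation factor gene, was at 20.6, 14.5, 18.5, 23 and 16.1 CPM in LL and at 1.74, 7.0, 3.72, 4.94 and 4.77 in LBL (-2.02, SE 0.38, adjusted p = 0.0037). Every LL library was above every LBL library for both. Pf4, platelet factor 4, averaged 8.37 ± 1.97 CPM in LL and 1.95 ± 1.64 in LBL (-2.10, SE 0.38, adjusted p = 0.00183), and Lyve1, a hyaluronan receptor, 4.32 ± 2.82 and 0.699 ± 0.565 (-2.55, SE 0.57, adjusted p = 0.0151; not called without LL 4 or LBL 5, up to 0.0781). Cbr2, Ms4a7 and Cd209f, each averaging under 5 CPM in LL, were also called lower; Cd209f had counts in LBL 2 and LBL 4 and none in the other 3 LBL libraries. Ms4a7 was not called without LL 1 or 4 or LBL 2, 3 or 4 (adjusted p up to 0.0854), nor Cbr2 without LL 4 (0.0519).

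Not every marker of the list moved: Stab1 was at 281 ± 42.6 CPM in LL and 222 ± 28.1 in LBL (-0.34, adjusted p = 0.196), and Siglec1 at 0.610 and 0.733 CPM on average (adjusted p = 0.922). The list's summed level, on average most of it from Stab1, was 337 to 473 CPM in LL and 223 to 303 in LBL. Its score, the mean log2 CPM of the members, was 2.23 ± 0.265 in LL and 0.839 ± 0.214 in LBL (SD, n = 5 each). The difference of -1.39 gave p = 0.00794 in a two-sided exact permutation test, the smallest that 5 against 5 libraries allow (adjusted p = 0.0437 over 11 marker lists). It was -1.16 within day 1 and -1.49 within day 2, where 4 libraries against 1 cannot give an exact p below 0.2. In bulk RNA, fewer cells of a type and less RNA per cell cannot be told apart. Of 12 tested markers of monocytes and monocyte-derived macrophages, Fn1 rose and Ms4a7 fell, and the score did not differ beyond its spread (-0.12, exact permutation p = 0.802). LL 4 had a score of 2.96, with the other LL libraries at 1.77 to 2.19, and without LL 4 the difference was 0.08 (exact permutation p = 0.397). Ccr2, a defining monocyte marker, was at 6.11 ± 2.63 CPM in LL and 4.70 ± 1.42 in LBL (adjusted p = 0.772).

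**Figure D4:**
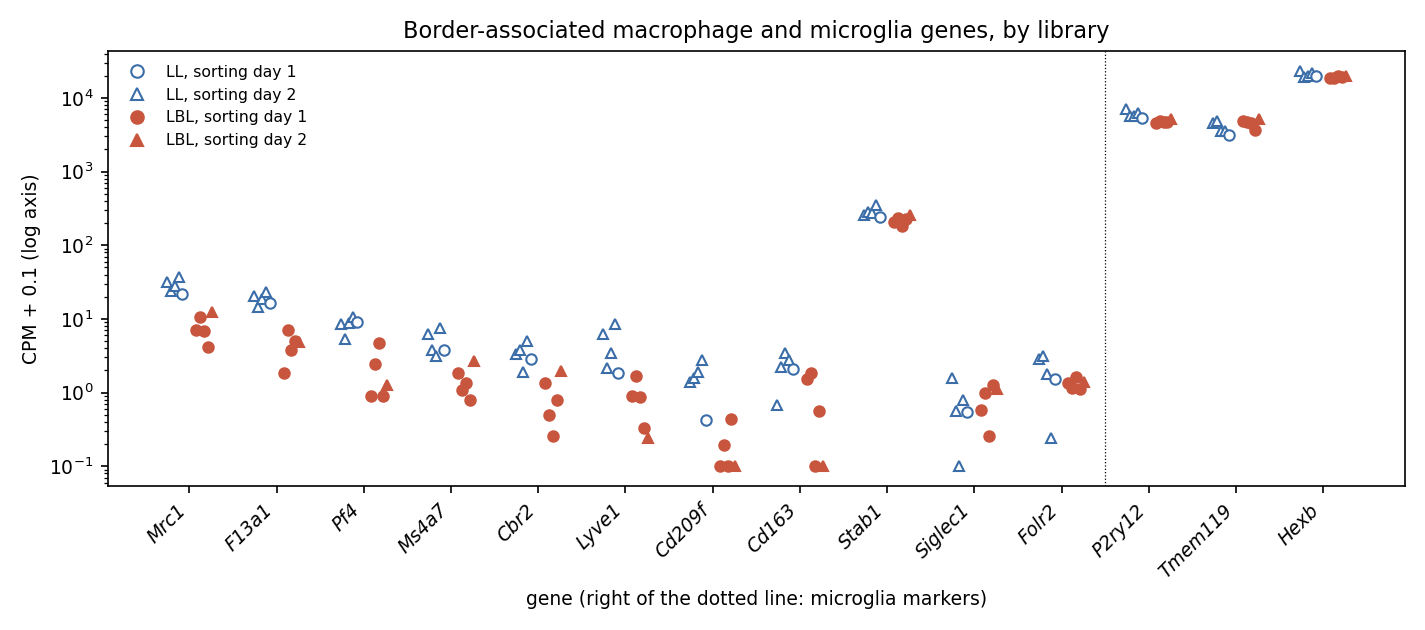
CPM plus 0.1 on a log axis of 11 border-associated macrophage genes and, right of the dotted line, 3 microglia markers in each LL and LBL library, with circles for sorting day 1 and triangles for day 2. Mrc1 is at 21.4 to 37.5 CPM in LL and 4.02 to 12.2 in LBL, whereas Stab1 overlaps between the groups.

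Genes named for lymphocytes were lower as well. Cd79b, a B cell receptor subunit that microglia also express (chromosome 11), was at 70.8, 54.7, 62.3, 51.1 and 56.5 CPM in LL and at 25.6, 25.8, 25.1, 18.4 and 13.6 in LBL, without overlap (-1.44, SE 0.18, adjusted p = 7.8e-06). Bank1, a B cell scaffold gene, fell from 59.1 ± 11.5 to 27.9 ± 4.88 CPM (-1.08, SE 0.14, adjusted p = 1.32e-05), chosen after its values were seen. Only 3 of 19 lymphocyte markers had enough counts to be tested, and Cd79b was the 1 called. Their score fell by 0.92 (exact permutation p = 0.00794, adjusted p = 0.0437), by 0.50 within day 1 and by 1.39 within day 2. All 4 tested Gimap genes, GTPases of lymphocyte survival, were called lower (Gimap1, Gimap5, Gimap6 and Gimap9; median -1.0), a family picked after the values were seen; with sorting day in the fit 1 of the 4 was called, within either day none, and 2 without LL 3, LL 4, LBL 2, LBL 3 or LBL 4. Gimap1 (not without LL 1, 3 or 4 or LBL 1 to 4) and Gimap5 (not without LL 3 or 4 or LBL 2 to 4) had adjusted p up to 0.0986 with a library left out. Gimap6 went from 51.2 ± 7.20 to 25.8 ± 1.89 CPM (-0.99, SE 0.17, adjusted p = 0.00169). Pecam1, an adhesion gene of endothelial cells and leukocytes, fell from 19.6 ± 6.02 to 5.52 ± 1.1 CPM (-1.82, SE 0.27, adjusted p = 0.000139). It was the 1 of 9 tested endothelial and pericyte markers that was called, and the score of those markers differed by 0.16 (exact permutation p = 0.516).

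Markers of the remaining cell types gave no call. Neuron markers followed the sorting day: their score was 3.54 to 4.34 in LBL 1 to 4 and 4.42 in LL 5 on day 1, and 2.58 to 3.24 in LL 1 to 4 and 3.05 in LBL 5 on day 2. Of 14 tested neuron markers none was called, the summed level was 331 to 1526 CPM in LL and 552 to 1390 in LBL, and no marker of the list was without counts in these libraries. The part of this neuronal signal in the genes above was not tested. Astrocyte (15 tested), oligodendrocyte (12), ependymal (4), neutrophil (8) and red blood cell (5) markers had no called member.

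Of 32 tested nuclear-encoded oxidative phosphorylation genes 3 fell and none rose (1 with sorting day in the fit, or without LL 1, 3, 4 or 5 or LBL 1, 2 or 4), 31 log2 fold changes were below 0, as were 47.4% of those of all tested genes, and the median was -0.26, -0.28 on day 1 and -0.32 on day 2. Ndufa2, a complex I subunit gene, was at 106, 110, 102, 117 and 120 CPM in LL and at 71.3, 78.1, 82.2, 68.9 and 82.3 in LBL (-0.54, SE 0.11, adjusted p = 0.00515), without overlap. Uqcrq, of complex III, was at -0.43 (SE 0.11, adjusted p = 0.0456; not called without LL 1, 3, 4 or 5 or LBL 1 to 4, up to 0.115). Sdhb, of complex II, was at -0.41 (SE 0.11, adjusted p just below the threshold, 0.05 when rounded; not called without LL 1, 3, 4 or 5 or LBL 1 to 5, up to 0.163). The summed level of the list was 3275 to 3603 CPM in LL and 2763 to 2994 in LBL.

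The following families were assembled after the values were seen, and none of their genes was called within either day alone. The signs of members that were not called have no test. Of 38 tested proteasome subunit genes 6 fell, among them Psma7 (-0.53, SE 0.10, adjusted p = 0.0037), Psmb4 (-0.54, SE 0.12, adjusted p = 0.0133) and Psmd8 (not called without LL 1, 4 or 5 or LBL 1, 2, 3 or 5, up to 0.108), and 36 were below 0 (median -0.31). The 6 became 3 with sorting day in the fit, 2 without LL 1, LL 4 or LBL 2 and 3 without LL 5, LBL 1 or LBL 5. Of 37 complex I subunit genes 7 fell and 36 were below 0 (median -0.34); the 7 became 2 with day in the fit or without LL 4, and 4 without LBL 2. Of 9 Commd genes, whose products sort endosomal cargo, 4 fell and all were below 0 (median -0.45); the 4 became 3 with day in the fit, 1 without LL 4 or LBL 5 and 2 without LL 1, LL 3 or LBL 4. Mitochondrial ribosome genes had 1 call in 76 (Mrps33; none with day in the fit) with 68 below 0 (median -0.25), and cytosolic ribosome genes none in 81 with 57 below 0 (median -0.11). Park7, an oxidative stress sensor gene, fell from 174 ± 5.44 to 119 ± 11.3 CPM (-0.55, SE 0.09, adjusted p = 0.000456). Transcript length moved with these groups: the median longest annotated transcript was 1612 bases for the lower genes, 3768 for the higher and 2959 for all tested genes. Among genes of at least 20 CPM the median log2 fold change was -0.19 for transcripts under 1000 bases and 0.05 for those of 4000 bases or more, with -0.15 and -0.03 in the bins between. The part of length in these results was not tested.

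Proliferation and metabolism lists otherwise held few calls. Of 33 tested cell cycle genes 1 fell, the cyclin gene Ccnd1 (140 ± 26.9 to 100 ± 10.3 CPM; -0.48, SE 0.13, adjusted p = 0.0496; not called without LL 1 to 4 or LBL 1 to 5, up to 0.129), and the median was -0.20. The division marker Mki67 was at 1.42 ± 1.11 CPM in LL and 1.14 ± 0.711 in LBL (-0.23, 95% interval -1.75 to 1.29, adjusted p = 0.934). No gene was called among 26 of glycolysis and HIF1A targets (median 0.12), 29 of cholesterol handling (0.16), 20 immediate early and heat shock genes (-0.14) and 17 of complement and Fc receptors (0.05). Of 37 lysosomal genes 1 rose, Man2b1, a mannosidase (0.46, SE 0.11, adjusted p = 0.0211; not called without LL 3, 4 or 5 or LBL 1 or 5, up to 0.0791), with a median of 0.01.

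The same contrast without any LPS, depleted (PBP) against undepleted (PP) mice given saline at both injections, shares no library with LBL and LL. All PP libraries were sorted on day 5, PBP 1 to 4 on day 4 and PBP 5 on day 3. Depletion and sorting day can therefore not be told apart between PBP and PP. In this contrast 48 genes were higher (0.289%) and 40 lower (0.241%). These 88 calls became 49 without PP 1, 56 without PP 3 and 50 without PBP 2. Of the 81 genes higher after repeated LPS, 14 were also higher without LPS, 17.3% of the 81 and 29.2% of the 48. Of the 120 lower genes 21 were also lower, 17.5% of the 120 and 52.5% of the 40, and none was called in opposite directions. The shared higher genes included Axl (11.2 ± 1.74 CPM in PP and 37.4 ± 8.68 in PBP; 1.74, adjusted p = 8.31e-05), Htra3, Arhgap15, Hcar2 (1.32, adjusted p = 0.00276) and Tnfsf13b, the gene of the B cell factor BAFF (0.94, adjusted p = 0.000442). The shared lower genes included Crybb1 (373 ± 18.6 CPM in PP and 171 ± 8.53 in PBP; -1.13, adjusted p = 2.81e-08), Fcrls, Cd79b, Bank1, Npl, Pecam1 and Mrc1. The log2 fold change without LPS had the same sign for 76 of the 81 and 115 of the 120 genes. It was above 0 for 9259 of all 16632 tested genes. The medians were 0.44 and -0.29, against 0.04 for all tested genes.

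A test of the difference between both contrasts called no gene: the smallest adjusted p was 0.775, 692 genes had an unadjusted p under 0.05, and DESeq2 and limma voom also called 0. Genes called after repeated LPS and not without LPS, such as Pdcd1 (0.86 without LPS, adjusted p = 0.0725), Tap1 (0.07, adjusted p = 0.917), Ptger4 (0.31, adjusted p = 0.605) and Ch25h (0.88, adjusted p = 0.705), were therefore not shown to differ between the settings. PP and most PBP libraries were sorted on another instrument than LL and LBL.

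**Figure D5:**
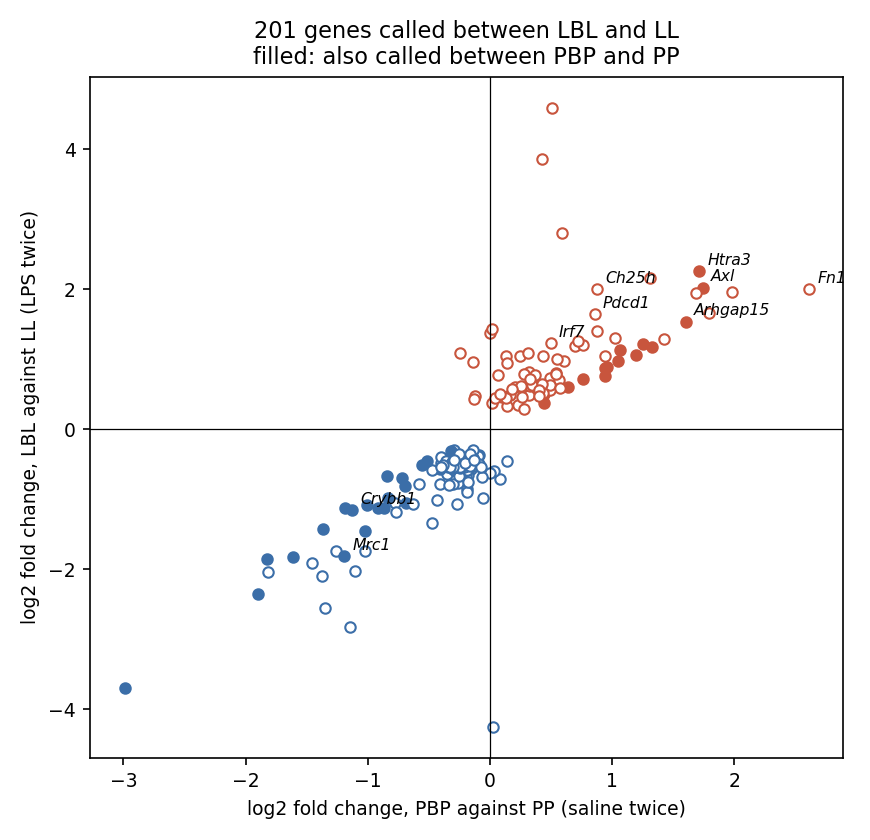
Log2 fold change of each of the 201 called genes in LBL against LL (vertical axis) and in PBP against PP (horizontal axis), red for higher and blue for lower genes, filled where the gene was called in both. Of the red points 76 of 81 lie right of 0 and of the blue points 115 of 120 lie left of it. Of all 16632 tested genes, which are not drawn, 9259 were above 0 in PBP against PP. Axl and Crybb1 are among the filled points.

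The contrast after a single LPS, PBL against PL, also shares no library with LBL and LL, but PBL and PL were sorted on different instruments. Its difference from the contrast after repeated LPS was called for 4 genes (0.0241%; smallest adjusted p = 0.0495), with 2417 genes at an unadjusted p under 0.05, and for 0 genes with the sorter in the fit or when any 1 of LL 3 to 5 or LBL 1 to 5 was left out (34 without PBP 5). None of the 4 was among the 201. PBP was the only group sorted on both instruments, with PBP 5 alone on that of LL and LBL. The fit with the sorter therefore rests on 1 library and cannot decide the part of the instrument. For the leading genes the log2 fold changes after a single LPS were 1.52 for Axl, 1.14 for Pdcd1, 2.07 for Ch25h, -1.19 for Crybb1, -2.12 for Mrc1 and -0.89 for Cd79b, against 2.03, 1.65, 2.00, -1.15, -1.80 and -1.44 after repeated LPS.

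Genes that LPS itself moves in undepleted mice were read from PL against PP, a contrast added after the data were seen, in which 14.2% of tested genes were higher and 11.9% lower. Of the 81 genes higher in LBL, 31 were LPS-raised (38.3%) and 11 LPS-lowered (13.6%). Of the 120 lower genes, 11 were LPS-raised (9.17%) and 21 LPS-lowered (17.5%). Hcar2 (5.36), Ch25h (5.74), Ptger4 (3.34), Gpr65 (2.63), Vcam1 (2.52) and Cd274 (2.01) were among the LPS-raised genes that stood higher in LBL, with the log2 fold change of PL against PP in brackets. Axl (0.30, adjusted p = 0.416), Pdcd1 (-0.44, adjusted p = 0.212), H2-D1 (0.19, adjusted p = 0.173), Crybb1 (0.07, adjusted p = 0.709) and Mrc1 (0.34, adjusted p = 0.403) were not called in that contrast.

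Of the 201 called genes 73 stayed called whichever of the 10 LL and LBL libraries was left out. Of the 40 called genes that the naming rule picked, 20 did so. Axl (adjusted p at most 6.74e-05), Pdcd1 (0.000557), Crybb1 (2.12e-07), Cd79b (6.85e-05), Mrc1 (0.00297), Pecam1 (0.00105), H2-D1 (0.0084) and Ch25h (0.0387) were among them.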

How the data were processed

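Polyadenylated RNA of sorted microglia was sequenced, per the labels' protocols. The authors deposited whole-number read counts per gene that were not normalized; FastQC 0.11.9, cutadapt 2.10, TopHat, SAMtools 1.10, Picard 2.13.2, HTSeq 0.11.0 and GRCm39 are named in the submitters' processing notes, without roles. The sources used here give neither the strand setting nor the annotation release, so whether reads of overlapping antisense genes were kept apart is not known. The authors also deposited a table with an RNA quality score, RNA concentration and sorting day per library.

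Of 36982 genes, 1323 had no Ensembl identifier (1.29% of all counts) and were kept by symbol; filterByExpr left 16632. Counts were fitted with edgeR 4.0.16 in R 4.3.3 (TMM, robust quasi-likelihood, 29 libraries, 1 coefficient per group, 23 residual degrees of freedom, common biological coefficient of variation 0.26); the script was tested on simulated data. All p-values are two-sided, and Benjamini-Hochberg adjustment ran over all genes of a comparison. Alternatives were DESeq2 1.42.0, limma voom 3.58.1, DESeq2 size factors, no filter, day or replicate number in the fit, and each library left out. Scores use log2 CPM with a prior count of 2. No pair of LL or LBL libraries agreed within sampling noise. At 0 counts in 5 libraries the limit is 0.07 CPM in LL and 0.0775 in LBL (3 counts over the group, counting error only). Transcript lengths are from GENCODE vM21, matched for 98.35% of tested genes.

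The comparison, gene lists and naming rule were chosen with earlier results of these data known. The rule named the 12 largest changes in each direction at 5 CPM or more, up to 4 called members of each list (else its 2 most abundant), and a set of standard microglia genes; Ly6c2 did not pass the filter.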

Additional observations from a re-analysis of the deposited data

Results flagged for a closer look

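In 9 of 162 groups of 5 libraries examined, 1 library stood apart from the other 4 by more than Dixon's test allows at 95%, about the 1 in 20 that chance gives. LL 5, the only LL library of sorting day 1, was high for Ch25h (22.2 CPM, the others 4.53 to 7.73), H2-K1 (389 CPM, others 287 to 310), Cxcl10 (54.0 CPM, others 7.88 to 14.0) and Apoe (1531 CPM, others 1110 to 1177). LL 2 was high for Junb at 1154 CPM (next 575), LBL 2 low for the costimulatory gene Cd86 at 802 CPM (next 1012), and LBL 4 low for Csf1r at 4015 CPM (next 5315). The monocyte marker score was 2.09 in LBL 3, with the other LBL libraries at 2.03 to 2.04. The neutrophil marker score was 2.50 in LL 4, with the other LL libraries at -0.52 to -0.17.

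The difference between LBL and LL departed from that between PBL and PL for 4 genes, by the test of the difference itself (edgeR quasi-likelihood test, adjusted p = 0.0495 for each). It was -4.25 (SE 0.74) for Atp1b2, an astrocyte marker, and -8.32 (SE 1.60) for the protease inhibitor gene Serpinb1a, 0.97 (SE 0.19) for the MYC partner gene Max and 0.90 (SE 0.17) for Tnfrsf11a, the RANK receptor gene. Serpinb1a had no counts in any PL library, so its fitted value depends on the prior count and gives no bound. In LBL against LL none of them was called (0.30, -0.90, 0.24 and 0.12). PL was sorted on another instrument than the other 3 groups, and with the sorter in the fit no gene was called. That fit rests on PBP 5 alone and cannot decide the part of the instrument.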

How the results depend on the processing

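The 201 calls between LBL and LL became 126 with no filter, 452 with DESeq2, 96 with only these 10 libraries and a replicate block, 4 within day 1, 25 within day 2, 98 without both libraries numbered 5 (added after seeing the data), and 85 to 284 with 1 library left out; they stayed within 1.5 times with DESeq2 size factors (218), limma voom (234), these libraries alone (251), day in that fit (210) and a replicate block over all libraries (292, 110 higher and 182 lower). Same-numbered LL and LBL libraries did not deviate together (correlations -0.311 to 0.075). Each such pair was sorted on different days, so these values cannot exclude that the numbers pair them. PBP against PP gave 88 calls, 292 with DESeq2 and 49 to 105 with 1 library left out. PBL against PL gave 3673, 3 with the sorter in the fit (which rests on PBP 5 alone) and 2326 to 4098 with 1 left out. The 4 genes of the contrast with PBL against PL became 0 with DESeq2 size factors, no filter, limma voom or the sorter in the fit, 1 with a replicate block, 52 with DESeq2, 34 without PBP 5 and 0 to 5 without 1 LL or LBL library. Score differences (exact permutation p = 0.2, the smallest possible there) within day 1 and day 2 were -1.16 and -1.49 for border-associated macrophages and -0.50 and -1.39 for lymphocytes; the neuron score differed by 0.39 to 0.85 with 1 library left out, passing 0.05 without LL 5 only (p = 0.0476). Among the named genes and marker scores no called direction reversed, and the other called genes were not checked in every alternative. The balance of calls did turn with day in the fit of the 10 libraries, from 103 higher and 148 lower to 144 higher and 66 lower. Day and group coincide for 8 of 10 libraries, which limits every value here; causes of these shifts were not tested.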

Other observations

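The following 4 genes of the cytoskeleton were among the lower genes in LBL and were picked after their values were seen. No list of such genes was tested, and a myosin light chain gene given below was called higher. Actb, which encodes beta-actin, fell by 0.29 on the log2 scale (SE 0.08, adjusted p = 0.0452; up to 0.122 with 1 library left out), Cfl1, the actin-severing protein cofilin, by 0.30 (SE 0.08, adjusted p = 0.0382; up to 0.148) and Pfn1, the actin-binding protein profilin, by 0.45 (SE 0.08, adjusted p = 0.00221; at most 0.0122). Tubb5, a tubulin gene, fell by 0.35 (adjusted p = 0.0382). Of these 4 genes only Pfn1 stayed called whichever LL or LBL library was left out: Actb and Tubb5 were not called without LL 1, 3, 4 or 5 or LBL 1, 2 or 4 (Actb also LBL 5), and Cfl1 without LL 1, 4 or 5 or LBL 1, 2, 3 or 5. These genes are abundant, with Actb at 4289 ± 213 CPM in LL.

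Genes near the detection limit in 1 group were called as well. Myl9, a myosin light chain gene, had counts in 1 of 5 LL libraries (0.303 CPM) and was at 0.972 to 2.68 CPM in LBL (adjusted p = 0.0272; not called without LL 1, 2, 4 or 5 or LBL 1, up to 0.0843). Cav1, the caveolin 1 gene, had counts in 2 of 5 LL libraries (0.146 and 0.455 CPM) and was at 0.778 to 2.37 CPM in LBL (adjusted p = 0.0197; 0.0694 at most, without LL 4 or LL 5). Dram1, an autophagy regulator gene, was at 0.553 to 3.83 CPM in LL and at most 0.158 CPM in LBL (adjusted p = 0.0167; 0.0555 without LBL 2).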
